A study of Mus musculus with 31 samples.

Results

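The DNA replication and S phase genes described here are 44 named mouse genes, taken by symbol from both expression tables of a study on Axin2 and stem cell competition in the developing brain. All 44 were found, among 34865 gene identifiers in the bulk RNA-seq table and 55487 in the Smart-seq2 table (Smart-seq2 reads whole transcripts from inputs as small as a cell). They fall into 8 roles: 6 subunits of the MCM helicase, 9 genes of origin licensing and firing, the sliding clamp with its loader (6), polymerases and primase (5), strand maturation and single-strand binding (4), nucleotide supply (5), copying of chromatin and DNA methylation (6) and G1/S regulators (3). Bulk libraries were made from dorsal diencephalon (3 libraries) and ventral diencephalon (3 libraries) dissected from wild-type embryos at E10.5 (E, embryonic day). Smart-seq2 libraries were made at E11.5 from dissociated medial cortex of the cross Emx1-CreERT2::MADM-11::Axin2LacZ/+, with 13 libraries labelled Axin2(-/-), called null below, and 12 labelled Axin2(+/+), called wild type. Both genotypes carry Emx1-cre(+/-) and the MADM cassettes on chromosome 11. Emx1 drives Cre in progenitors of the dorsal telencephalon, and in MADM mosaics the sisters of a mutant cell are wild type and marked in another colour. The protocol names the inducible CreERT2 form while the genotype labels say Emx1-cre, and no tamoxifen treatment is given. All samples carry the source label neural progenitor cells.

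Before S phase, a cell loads the ring-shaped MCM helicase onto replication origins with the help of the origin recognition complex, Cdc6 and Cdt1. At the G1/S transition, cyclin E with its kinase and the E2F transcription factors switch on the genes of replication, Cdc45 and the GINS complex turn the loaded helicase on, and polymerases held by the Pcna clamp copy both strands. Nucleotide enzymes supply the building blocks, and histone chaperones and maintenance methylation copy the chromatin behind the fork. In the embryonic brain these genes are transcribed in cycling progenitors of the ventricular zone and are switched off as neurons leave the cycle.

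The bulk libraries held 17604411 to 20838226 counts each. Libraries 1 and 2 of a region were closest to each other, with correlations of log2 CPM of 0.9948 in dorsal and 0.9871 in ventral, while library 3 of each region stood apart (0.9593 to 0.9623 in dorsal, 0.9141 to 0.9253 in ventral), and main counts are also given without both of these. CPM are counts per 1000000 counts. No label says that replicate libraries are from different embryos, and the p-values therefore rest on a spread among libraries that may be technical. Marker genes of neural progenitors summed to 1395 to 1443 CPM in dorsal, against 1143 to 1311 CPM in ventral libraries (16 genes, of which 5 passed as higher in dorsal and 2 as higher in ventral, or 3 to 6 and 0 to 2 with 1 library left out). Those of postmitotic neurons summed to 8282 to 8779 CPM in dorsal, against 9666 to 10393 CPM in ventral libraries (20 genes, 2 higher in dorsal and 5 higher in ventral, or 0 to 2 and 1 to 6 with 1 library left out), so neuronal transcripts were abundant in libraries labelled as progenitors. Genes of intestine and exocrine pancreas summed to 13.3 to 18.9 CPM in dorsal, against 3281 to 12376 CPM in ventral libraries, with 24 of the 25 tested genes higher in ventral and 2 of the 26 listed genes at 0 in dorsal. Red blood cell genes summed to 114 to 204 CPM in dorsal, against 63.7 to 109 CPM in ventral libraries, with 2 of 5 tested genes (Hbb-y and Hba-x, embryonic globins) higher in dorsal; 2 of the 7 listed genes, Hba-x among them, were at 0 in ventral. Macrophage genes summed to 2.46 to 7.27 CPM in dorsal, against 7.69 to 47.5 CPM in ventral libraries, with 2 of 3 tested genes (Lyz2 and Ctss) higher in ventral, or 1 with any 1 library other than ventral library 3 left out. Genes of mesenchyme and vessels summed to 21.5 to 30.1 CPM in dorsal, against 25.9 to 45.7 CPM in ventral libraries, and 0 of 7 tested genes passed by edgeR (2 at an unadjusted p under 0.05, both higher in ventral; 1 by DESeq2, 0 by limma-voom; 1 higher in dorsal without ventral library 2 and 1 higher in ventral without ventral library 3). The labels do not say where the intestine and pancreas transcripts in all 3 ventral libraries came from. The part of these lists in the differences below, whether from cells of the tissue or not, was not tested. In bulk tissue, fewer cells of a type and less RNA per cell cannot be told apart.

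Promoters of 4 genes are shown because they carry, or lack, the E2F sequence beside opposite outcomes in bulk: Mcm5 and Mcm6 (2 MCM subunits higher in dorsal), Rfc3 (a clamp loader subunit that did not pass the test) and Rrm2 (a nucleotide enzyme higher in dorsal). They were chosen after their values were seen. Each is the 300-base window from 250 bases before to 50 bases from the start site, from RefSeq on GRCm38.p6, 5′ to 3′ on the strand of the gene. The windows are chr8:75109259-75109558 (plus strand) for Mcm5, chr1:128359656-128359955 (minus) for Mcm6, chr5:151651159-151651458 (minus) for Rfc3 and chr12:24708004-24708303 (plus) for Rrm2. Capitals mark E2F words, that is TTTCCCGC, TTTCGCGC, TTTGCCGC or TTTGGCGC on either strand; overlapping matches run together.
Mcm5: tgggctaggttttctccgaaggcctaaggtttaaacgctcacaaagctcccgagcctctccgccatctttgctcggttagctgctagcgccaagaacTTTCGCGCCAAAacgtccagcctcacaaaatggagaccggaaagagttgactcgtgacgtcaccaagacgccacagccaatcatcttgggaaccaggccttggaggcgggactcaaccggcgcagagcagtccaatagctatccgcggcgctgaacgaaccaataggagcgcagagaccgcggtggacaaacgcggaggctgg
Mcm6: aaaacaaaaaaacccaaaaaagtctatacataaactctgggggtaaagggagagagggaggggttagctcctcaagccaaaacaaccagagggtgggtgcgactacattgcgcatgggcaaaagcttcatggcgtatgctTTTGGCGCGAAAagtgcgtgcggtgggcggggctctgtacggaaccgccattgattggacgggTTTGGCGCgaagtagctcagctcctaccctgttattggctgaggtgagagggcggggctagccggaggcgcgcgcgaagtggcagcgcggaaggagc
Rfc3: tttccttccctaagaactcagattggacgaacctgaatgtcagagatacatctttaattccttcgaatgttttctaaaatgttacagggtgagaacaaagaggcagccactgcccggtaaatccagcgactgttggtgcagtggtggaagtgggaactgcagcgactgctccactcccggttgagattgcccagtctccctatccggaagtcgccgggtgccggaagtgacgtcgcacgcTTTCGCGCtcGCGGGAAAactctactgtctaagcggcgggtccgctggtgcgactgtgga
Rrm2: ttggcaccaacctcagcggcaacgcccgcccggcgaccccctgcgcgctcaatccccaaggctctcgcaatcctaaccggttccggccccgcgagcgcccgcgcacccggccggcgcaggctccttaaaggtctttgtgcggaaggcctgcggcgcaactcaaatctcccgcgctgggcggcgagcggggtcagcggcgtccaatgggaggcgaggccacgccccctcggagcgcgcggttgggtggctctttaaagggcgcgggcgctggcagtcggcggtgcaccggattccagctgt

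Mcm5 held 2 overlapping words, the first starting at -153 from the start site, Mcm6 held 3 (at -110, -106 and -47), Rfc3 held 2 (at -10 and 0, with 0 the first transcribed base), and Rrm2 held none. A window was available for 38 of the 44 genes. An E2F word stood in 15 of the 38 (39.5%), compared with 495 of 10950 genes tested in bulk that had a window (4.52%) and 704 of all 27025 genes (2.60%). The CCAAT box (CCAAT) stood in a window of 60.5% of the 38 genes and of 43.3% of the tested genes, and the GC box (GGGCGG) in a window of 78.9% and 67.0%. The CHR words TTTGAA or TTCGAA stood in a window of 18.4% and 16.8%. Some genes have more than 1 window, and of the 45 windows of the 38 genes 33.3% held an E2F word, 57.8% a CCAAT box, 73.3% a GC box and 15.6% a CHR word. The median GC content was 61.3% over these 45 windows and 60.3% over the 14041 windows of the tested genes. A word match is a description of these letters, not a bound site. The only windows of E2f1 and Dut, counted without a word, lie inside the annotated gene (GENCODE M21). So does that of Cdc6, counted with a word. Bases before the annotated start of these genes were not searched. No test was made between genes with and without a word. Among the 15 genes with an E2F word, 10 were higher in dorsal diencephalon, with a median log2 fold change of 1.42 and a lowest of 0.04; among the 23 without, 15 were higher in dorsal, with a median of 0.97 and values between -0.10 and 2.49.

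The comparison of dorsal with ventral diencephalon asks how the transcription of the replication machinery differed between regions of the E10.5 brain. Replication genes were more abundant in dorsal diencephalon, with at least 1 gene of each of the 8 roles past the test. Of the 44, all were tested, 26 (59.1%) were higher in dorsal, 0 were higher in ventral and 18 did not pass (edgeR quasi-likelihood test, Benjamini-Hochberg adjusted p under 0.05). The background was 7.14% higher in dorsal and 9.54% higher in ventral among all 14701 genes. At an unadjusted p under 0.05 the counts were 33 for dorsal and 0 for ventral, and the share of all genes at this looser threshold is not given here. DESeq2 and limma-voom likewise called 0 members higher in ventral. The log2 fold change was above 0 for 43 of 44 genes, with a median of 1.13 over the 44 and of 0.01 over all genes tested. Every dorsal library was above every ventral library for 34 of 44 (77.3%), against 19.0% of all genes. The summed level of the 44 genes was 3308, 3383 and 3169 CPM in the dorsal libraries, against 1723, 1750 and 1642 CPM in the ventral libraries. These sums did not overlap, and their means of 3286 ± 109 CPM in dorsal, against 1705 ± 56.2 CPM in ventral (SD, n = 3 each) differed 1.93-fold. Leaving out 1 library moved the count of members higher in dorsal to 17 (dorsal library 1), 18 (dorsal library 2), 27 (dorsal library 3), 16 (ventral library 1), 18 (ventral library 2) and 30 (ventral library 3). It was 39 in libraries 1 and 2 alone. The share of all tested genes that were higher in dorsal moved in the same direction in each of these settings. This share was 3.36% and 3.79% without dorsal libraries 1 and 2 in turn, and 3.61% and 4.13% without ventral libraries 1 and 2 in turn. It was 9.68% without dorsal library 3, higher still without ventral library 3, and 26.4% in libraries 1 and 2 alone. Counts below for roles and lists with a library left out are to be read beside these shares.

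**Figure D1:**
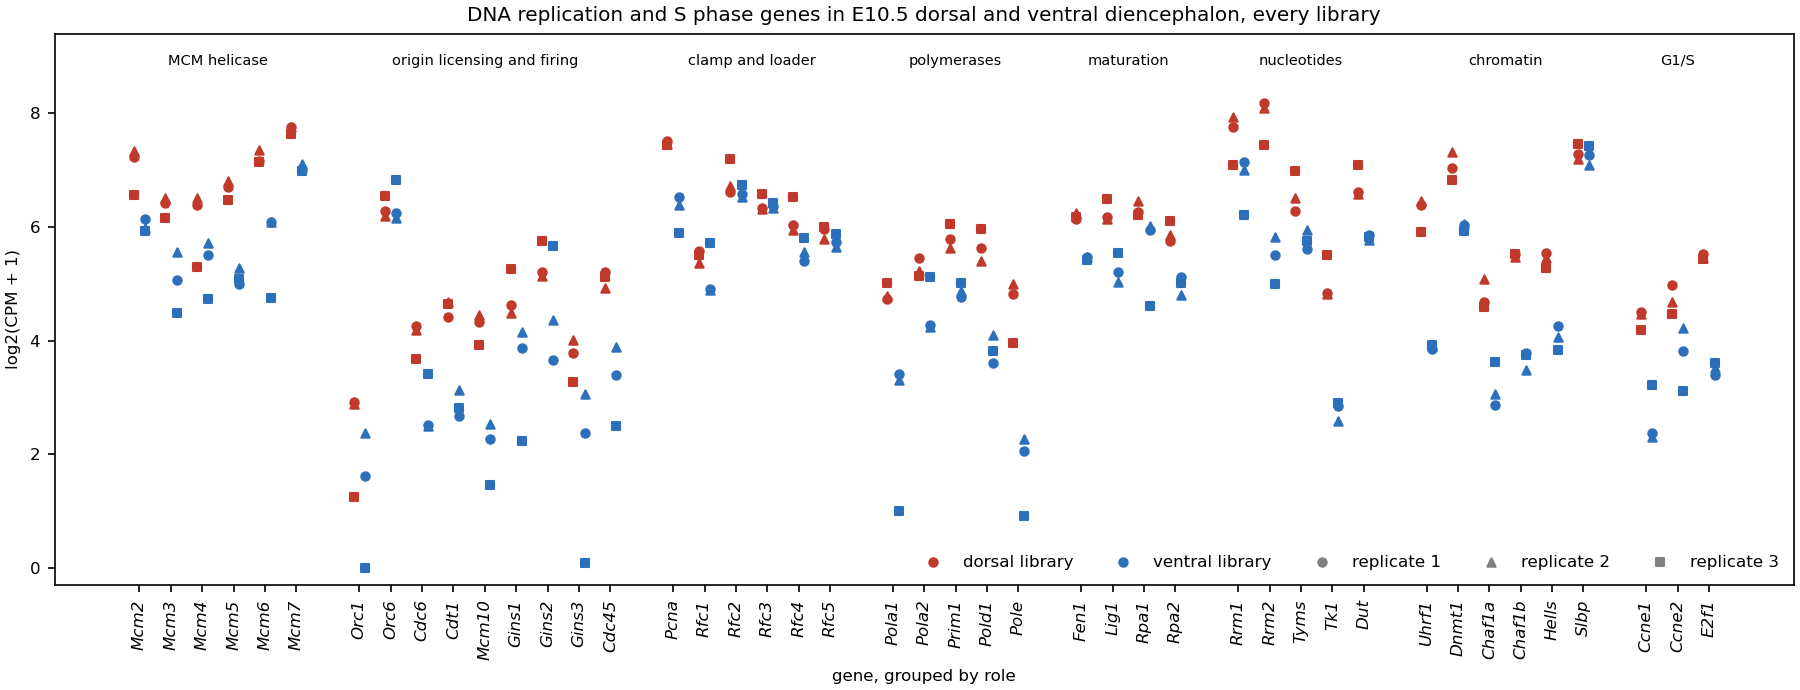
Level of each of the 44 genes in every bulk library, as log2(CPM + 1), with dorsal libraries in red left of ventral libraries in blue and the symbol giving the replicate number. Dorsal points lie above ventral points without overlap for 34 of the 44 genes. The regions overlap for Mcm4, Orc1, Orc6, Gins2, Rrm1, Slbp and the Rfc subunits other than Rfc4.

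The MCM helicase, the motor that unwinds DNA at the fork, was higher in dorsal for 5 of its 6 subunits, with a median log2 fold change of 1.19 and summed levels of 746 ± 104 CPM in dorsal, against 355 ± 56.4 CPM in ventral (SD, n = 3 each). Mcm5 was at 103, 111 and 88.2 CPM in dorsal and at 30.8, 37.6 and 33.0 CPM in ventral libraries. The regions were well apart for this subunit, at a log2 fold change of 1.58 with a standard error (SE) of 0.18 and an adjusted p of 0.00101. Mcm6 was at 142, 163 and 141 CPM in dorsal and at 67.0, 66.7 and 26 CPM in ventral libraries, ventral library 3 being the lowest (log2 fold change 1.48, SE 0.34, adjusted p = 0.0220). Mcm7, the subunit with the smallest difference, was at 215, 215 and 199 CPM in dorsal and at 127, 137 and 126 CPM in ventral libraries (log2 fold change 0.69, SE 0.14, adjusted p = 0.0147). Mcm2 and Mcm3 also passed, and Mcm4 did not (edgeR, adjusted p = 0.194). For Mcm4, dorsal library 3 (38.4 CPM) lay below ventral libraries 1 and 2 (44.4 and 51.7 CPM), and ventral library 3 was at 25.4 CPM. Mcm4 passed without dorsal library 3 (adjusted p = 0.0490). The number of subunits that passed was 1 without dorsal library 1 or 2, 2 without ventral library 1 and 3 without ventral library 2, with Mcm5 the subunit that passed in all of these. Mcm6 was at an adjusted p of 0.0609 without dorsal library 1 and 0.0688 without dorsal library 2. Mcm7 was at 0.0842, 0.0730, 0.0841 and 0.0605 without dorsal libraries 1 and 2 and ventral libraries 1 and 2, each left out in turn.

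Among the 9 genes of origin licensing and firing, Mcm10, Cdt1 and Cdc45 were higher in dorsal and the other 6 did not pass. Mcm10, which joins the helicase as it starts to unwind, was at 19.0, 20.8 and 14.1 CPM in dorsal and at 3.81, 4.77 and 1.73 CPM in ventral libraries (log2 fold change 2.39, SE 0.43, adjusted p = 0.00807). Cdt1, which loads MCM onto origins, was at 20.4, 24.6 and 24.1 CPM in dorsal and at 5.34, 7.80 and 6.02 CPM in ventral libraries (log2 fold change 1.85, SE 0.27, adjusted p = 0.00332). For both genes every dorsal library was above every ventral library. Orc6, a subunit of the origin recognition complex, was at 76.3, 71.8 and 91.9 CPM in dorsal and at 74.7, 70.6 and 113 CPM in ventral libraries. The regions overlapped for Orc6, the only one of the 44 with a log2 fold change below 0 (-0.10, SE 0.23, adjusted p = 0.796), and its sign turned without ventral library 3 (0.11). Cdc45, which activates the helicase, averaged 32.9 ± 3.29 CPM in dorsal, against 9.33 ± 4.6 CPM in ventral libraries (SD, n = 3 each; log2 fold change 1.82, adjusted p = 0.0155), with adjusted p of 0.0620 without dorsal library 1 and 0.0617 without ventral library 1. Cdc6, which works with Cdt1, averaged 15.7 ± 3.48 CPM in dorsal, against 6.30 ± 2.85 CPM in ventral libraries without passing (log2 fold change 1.32, adjusted p = 0.0599), and passed without ventral library 3 (adjusted p = 0.00518), by DESeq2 (0.0135) and by limma-voom (0.0406). The GINS subunits Gins1, Gins2 and Gins3 had log2 fold changes of 1.27, 0.60 and 1.65 and did not pass. In ventral library 3 they were at 3.68, 49.8 and 0.0558 CPM, away from ventral libraries 1 and 2 in both directions, and Gins2 passed without that library (log2 fold change 1.37, adjusted p = 0.0216). Orc1, the largest subunit of the origin recognition complex, with 10.8% of its exon bases under another gene on the other strand, was at 6.54, 6.40 and 1.36 CPM in dorsal and at 2.08, 4.17 and 0 CPM in ventral libraries, and it did not pass (adjusted p = 0.568). The role had 5 genes higher in dorsal without ventral library 3, and 2 without dorsal library 1 or ventral library 1.

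The clamp and its loader differed from each other in outcome. Pcna, the ring that tethers polymerases to DNA, was at 181, 175 and 173 CPM in dorsal and at 91.4, 82.7 and 58.5 CPM in ventral libraries, with no overlap (log2 fold change 1.18, SE 0.20, adjusted p = 0.00578). Of the 5 subunits of replication factor C, the complex that opens and loads that ring, 0 passed by edgeR, DESeq2 or limma-voom, and 1 (Rfc4) had an unadjusted p under 0.05. Rfc3 was at 79.2, 78.7 and 94.3 CPM in dorsal and at 81.4, 79.9 and 84.4 CPM in ventral libraries, which overlapped (log2 fold change 0.04, SE 0.16, adjusted p = 0.902), and its sign turned without dorsal library 3 (-0.05). Rfc4, the subunit with the largest difference, was at 64.8, 60.7 and 91.0 CPM in dorsal and at 41.0, 45.9 and 54.8 CPM in ventral libraries. Its regions did not overlap, yet it did not pass over all genes (log2 fold change 0.61, SE 0.22, adjusted p = 0.10). Rfc1, Rfc2 and Rfc5 had log2 fold changes of 0.26, 0.25 and 0.17. Another gene on the other strand overlaps 15.1% of the exon bases of Rfc2, 12.7% of those of Rfc4 and 10.7% of those of Rfc5, so their counts may include its reads. Rfc1 passed without ventral library 3 (log2 fold change 0.58, adjusted p = 0.0470), and both Rfc1 and Rfc4 passed in libraries 1 and 2 alone (log2 fold changes 0.58 and 0.52). No test was made of the difference between Pcna and the loader.

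Polymerases and primase had a median log2 fold change of 1.90, with summed levels of 184 to 207 CPM in dorsal, against 68.4 to 79.6 CPM in ventral libraries. Pole, the catalytic subunit of the leading-strand polymerase, was at 27.3, 31.0 and 14.6 CPM in dorsal and at 3.16, 3.79 and 0.892 CPM in ventral libraries. This was the largest difference among the 44 genes (log2 fold change 3.21, SE 0.56, adjusted p = 0.00706), and library 3 was the lowest of its region on both sides. Pola1, the catalytic subunit of the priming polymerase, was at 25.6, 26.6 and 31.2 CPM in dorsal and at 9.59, 8.89 and 1.0 CPM in ventral libraries. Despite the gap between regions it did not pass (log2 fold change 2.09, SE 0.67, adjusted p = 0.0728), and it passed without ventral library 3 (log2 fold change 1.56, adjusted p = 0.00231), by DESeq2 (adjusted p = 0.0103) and by limma-voom (adjusted p = 0.0328). Pola2, its accessory subunit, was at 43.0, 36.6 and 34.2 CPM in dorsal and at 18.4, 17.8 and 33.6 CPM in ventral libraries (log2 fold change 0.71, SE 0.29, adjusted p = 0.144). Ventral library 3 of Pola2 lay next to the dorsal values, and the gene passed without it (adjusted p = 0.00723). Pold1, the catalytic subunit of the lagging-strand polymerase, averaged 50.2 ± 10.3 CPM in dorsal, against 13.4 ± 2.57 CPM in ventral libraries (SD, n = 3 each; log2 fold change 1.90, adjusted p = 0.00190). Prim1, the primase, averaged 56.0 ± 8.45 CPM in dorsal, against 28.5 ± 2.55 CPM in ventral libraries (SD, n = 3 each; log2 fold change 0.97, adjusted p = 0.0122), with adjusted p of 0.0582 once dorsal library 1 was left out, 0.0637 for ventral library 1 and 0.0552 for ventral library 2. The role had 5 of 5 genes higher in dorsal without ventral library 3, and 2 without dorsal library 1, ventral library 1 or ventral library 2.

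Of the 4 genes that finish new strands or coat single strands, 3 were higher in dorsal. Lig1, the ligase that seals Okazaki fragments, was at 71.0, 69.8 and 88.7 CPM in dorsal and at 35.7, 31.8 and 45.8 CPM in ventral libraries (log2 fold change 1.02, SE 0.21, adjusted p = 0.0131). Rpa2, a subunit of the single-strand binding complex, was at 53.2, 57.3 and 67.5 CPM in dorsal and at 33.8, 26.8 and 31.4 CPM in ventral libraries (log2 fold change 0.95, SE 0.19, adjusted p = 0.0123). Both were without overlap between regions. Rpa1, the large subunit of the same complex, was at 76.0, 86.3 and 73.2 CPM in dorsal and at 60.3, 63.6 and 23.4 CPM in ventral libraries and did not pass (log2 fold change 0.68, SE 0.35, adjusted p = 0.237). Fen1, the flap nuclease, averaged 71.8 ± 2.89 CPM in dorsal, against 42.8 ± 0.959 CPM in ventral libraries (SD, n = 3 each; log2 fold change 0.75, adjusted p = 0.0147). In GENCODE M21, 84.2% of its exon bases overlap exons of Gm10143 and Tmem258 on the other strand, and the strand setting of the counting is not given in the sources used here, so its counts are uncertain. The same holds for Gins2 (67.3%, with Gse1) and Chaf1a (52.5%, with Ubxn6). The number of genes of this role that passed was 2 without dorsal library 1, 1 without dorsal library 2 or ventral library 1, and 0 without ventral library 2, where Lig1 was at an adjusted p of 0.0612, Rpa2 at 0.0624 and Fen1 at 0.0677 (edgeR). Fen1 was at 0.0738 without dorsal library 1, 0.0841 without dorsal library 2 and 0.0679 without ventral library 1, Rpa2 at 0.0511 without dorsal library 2, and Lig1 at 0.0647 without ventral library 1.

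Nucleotide supply was higher in dorsal for 4 of 5 genes. Rrm2, the S phase subunit of ribonucleotide reductase, was at 288, 271 and 172 CPM in dorsal and at 44.6, 55.9 and 30.7 CPM in ventral libraries (log2 fold change 2.48, SE 0.29, adjusted p = 0.00121). Tk1, the thymidine kinase of S phase, was at 27.7, 27.3 and 44.3 CPM in dorsal and at 6.23, 4.99 and 6.47 CPM in ventral libraries (log2 fold change 2.49, SE 0.29, adjusted p = 0.00120). The lowest dorsal library was well above the highest ventral one for both genes. Rrm1, the large subunit that pairs with Rrm2, was at 215, 243 and 135 CPM in dorsal and at 140, 127 and 72.6 CPM in ventral libraries and did not pass (log2 fold change 0.80, SE 0.31, adjusted p = 0.120). Its dorsal library 3 lay below ventral library 1, and it passed in libraries 1 and 2 alone (adjusted p = 9.17e-05). Dut, which clears dUTP, averaged 109 ± 23.2 CPM in dorsal, against 55.5 ± 1.89 CPM in ventral libraries, and Tyms, thymidylate synthase, 97.4 ± 24.9 CPM in dorsal, against 54.0 ± 6.47 CPM in ventral libraries (SD, n = 3 each). Dut passed at an adjusted p of 0.0114, and at 0.0521 without ventral library 1 and 0.0573 without ventral library 2 it did not. Tyms passed at 0.0350, the highest adjusted p of the 26 genes, and lost the call without any library but dorsal library 3, its adjusted p reaching 0.141 without ventral library 1. Only 2 of the 5 genes passed without ventral library 1 or 2.

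Genes that copy chromatin and DNA methylation were higher in dorsal for 5 of 6, the same number without any 1 of the 6 libraries. Uhrf1, which recruits the maintenance methyltransferase to newly copied DNA (chromosome 17, 56303321 to 56323486, plus strand, GENCODE M21 on GRCm38), was at 83.1, 86.8 and 59.3 CPM in dorsal and at 13.5, 13.9 and 14.1 CPM in ventral libraries. It had the lowest adjusted p of the 44 genes (log2 fold change 2.46, SE 0.21, adjusted p = 0.000288). Chaf1b, a subunit of the histone chaperone CAF-1, was at 45.0, 43.3 and 45.0 CPM in dorsal and at 12.8, 10.2 and 12.4 CPM in ventral libraries (log2 fold change 1.91, SE 0.20, adjusted p = 0.000718). Its partner Chaf1a, the methyltransferase Dnmt1 and the chromatin remodeller Hells had log2 fold changes of 1.69, 1.08 and 1.42. Slbp, which binds the stem-loop of replication-dependent histone messages, was at 155, 146 and 174 CPM in dorsal and at 153, 135 and 170 CPM in ventral libraries. The regions overlapped for Slbp (log2 fold change 0.05, SE 0.16, adjusted p = 0.871), and its sign turned without dorsal library 3 (-0.02) and without ventral library 2 (-0.04).

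Of the 3 G1/S regulators, E2f1 and Ccne1 were higher in dorsal. E2f1, an activating E2F factor, was at 44.8, 42.6 and 42.1 CPM in dorsal and at 9.54, 10.4 and 11.2 CPM in ventral libraries, tight within each region (log2 fold change 2.06, SE 0.20, adjusted p = 0.000481). Ccne1, encoding cyclin E1, was at 21.8, 21.1 and 17.1 CPM in dorsal and at 4.2, 3.96 and 8.31 CPM in ventral libraries (log2 fold change 1.87, SE 0.37, adjusted p = 0.0116). The call on Ccne1 did not hold without dorsal library 1 (adjusted p = 0.0591), dorsal library 2 (0.0517) or ventral library 1 (0.0529). Ccne2, encoding cyclin E2, was at 30.4, 24.7 and 21 CPM in dorsal and at 13.1, 17.7 and 7.69 CPM in ventral libraries and did not pass by edgeR (log2 fold change 0.98, SE 0.34, adjusted p = 0.0915) or limma-voom (0.0681), while DESeq2 gave an adjusted p of 0.0499. Exons of Ccne2 also overlap another gene on the other strand.

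**Figure D2:**
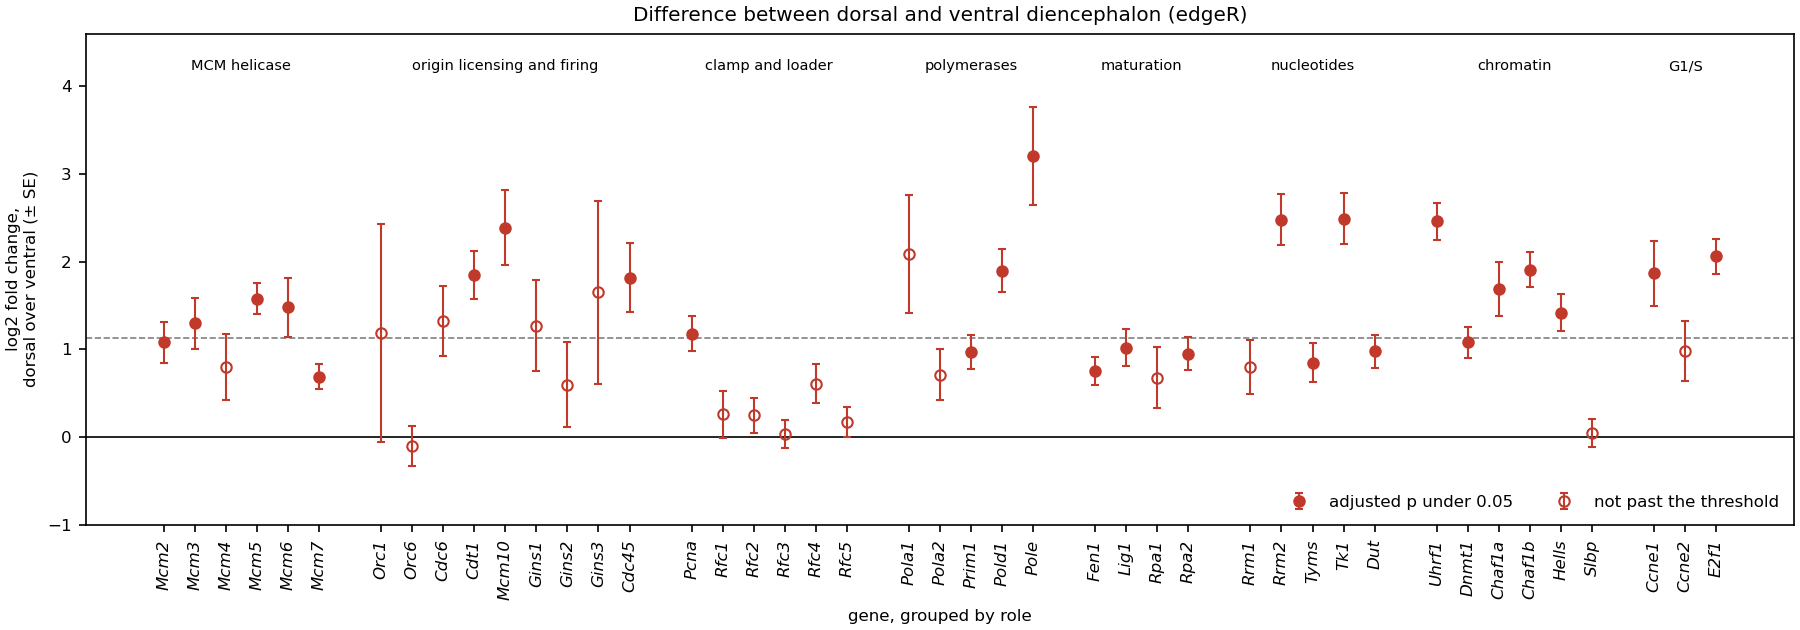
Log2 fold change of each gene, dorsal over ventral, with its SE from edgeR (3 libraries per region). Filled points passed an adjusted p of 0.05 over all genes, and the dashed line is the median of the 44 genes, 1.13; Orc6, Slbp and the Rfc subunits other than Rfc4 lie closest to 0.

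A longer list of 85 other replication genes, none of them among the 44, was also shifted to dorsal. Of the 85, 26 were higher in dorsal, 0 higher in ventral and 59 did not pass (edgeR), with a median log2 fold change of 0.66. At an unadjusted p under 0.05 the counts were 45 and 2, again without a share of all genes at that threshold. Libraries 1 and 2 alone gave 57 higher in dorsal and 7 higher in ventral, DESeq2 gave 37 and 1, and the dorsal count was 14 without dorsal library 1 or 2, 15 without ventral library 1 and 17 without ventral library 2. In origin licensing and firing, 4 of 17 were higher in dorsal (2 without dorsal library 1 or 2 or ventral library 1 or 2), led by Ticrr (log2 fold change 3.75), which brings Cdc45 to the helicase, and Topbp1 (1.49). Among polymerase subunits, clamp and fork genes, 9 of 23 were higher in dorsal (3 without dorsal library 1 or 2 or ventral library 1, 5 without ventral library 2), led by Top2a (2.19), a topoisomerase, and Dscc1 (2.17), part of an alternative clamp loader. Of 7 histone chaperones 1 passed, Asf1b (1.5), against 4 without ventral library 3 and 3 by DESeq2 and by limma-voom. Cad (1.91) and Shmt1 (1.88) led 3 of 12 in nucleotide supply (5 without dorsal library 3 and by DESeq2), and E2f8 (2.06) and E2f7 (1.48), which repress E2F targets, led 3 of 12 E2F factors and pocket proteins. That count was 1 without dorsal library 1 or 2 or ventral library 1 or 2, and 6 without ventral library 3. Dscc1 was at an adjusted p of 0.0533 to 0.0636 without dorsal library 1 or 2 or ventral library 1, E2f8 at 0.0636 to 0.0859 and E2f7 at 0.112 to 0.146 without any 1 of the libraries numbered 1 or 2, and E2f7 at 0.0753 without dorsal library 3. Of 14 cyclins, kinases and inhibitors of G1 and S, 6 were higher in dorsal, led by Ccna2 (1.97), the cyclin of S phase and G2, and Fbxo5 (1.90), an inhibitor of the anaphase-promoting complex. These 6 included Cdkn1a (1.70), which encodes the cell cycle inhibitor p21 and was at an adjusted p of 0.0583 and 0.0531 without dorsal libraries 1 and 2 in turn.

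Genes of the following cell cycle phases were set beside the replication genes. Of 30 genes of G2 and M phase, 27 were higher in dorsal and 0 in ventral, with a median log2 fold change of 1.88 and summed levels of 2013 ± 26.1 CPM in dorsal, against 543 ± 66.2 CPM in ventral (SD, n = 3 each). The ratio of the summed levels was 3.70 for the G2 and M genes and 1.93 for the 44 replication genes. No test of the difference between these ratios was made. The 2 of the 30 with the highest mean CPM (counts, not levels per length), Ccnb1 and Top2a, averaged 160 ± 41.2 and 159 ± 13.4 CPM in dorsal, against 37.6 ± 13.5 and 34.7 ± 16.3 CPM in ventral libraries. Among the 8 roles, the ratio of summed levels ran from 1.40 for clamp and loader, 1.64 for licensing and firing, 1.78 for strand maturation, 1.81 for chromatin copying, 2.11 for MCM, 2.50 for nucleotide supply and 2.64 for polymerases to 3.09 for the G1/S regulators.

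Levels of different genes were compared per length, as TPM (transcripts per 1000000) from the bulk counts and GENCODE M21 exon lengths. In dorsal libraries the highest mean levels were those of Rrm2 (286 TPM), Pcna (236), Mcm7 (152), Rfc4 (149) and Dut (143), and the lowest that of Orc1 (4.57). In ventral libraries, the same genes were at 41.4 (Rrm2), 85.2 (Pcna), 78.0 (Mcm7), 82.5 (Rfc4), 61.4 (Dut) and 1.51 TPM (Orc1), so Rrm2 led the dorsal order but stood below the other 4 in ventral. The order of the 44 genes in dorsal libraries had a Spearman correlation of 0.92 with that in ventral libraries and of 0.82 with the mean TPM of the Smart-seq2 libraries. These are descriptions over genes, which share their annotated lengths.

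The Smart-seq2 comparison asks how cells without Axin2 differ from wild-type cells of the medial cortex. The deposited values are TPM, so the depth is unknown, and since no label names an animal, the libraries of a genotype were treated as 1 sample and no test was made. Axin2 itself, the gene targeted, was listed at 0 to 22.4 TPM in null libraries (median 3.28), against 4.32 to 35.9 TPM in wild-type libraries (median 13.2). The ranges overlapped, and which part of the transcript the LacZ allele removes is not given, so reads in null libraries do not settle the labels. Progenitor markers summed to 1441 to 3281 TPM in null and 1171 to 3109 TPM in wild-type libraries. Neuron markers summed to 129 to 2281 TPM in null and 527 to 2270 TPM in wild-type libraries, and red blood cell genes to 2570 to 43531 TPM in null and 978 to 31000 TPM in wild-type libraries.

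The replication genes were transcribed in every library. Between 39 and 44 of the 44 genes reached 1 TPM in each library, and 32 reached it in all 25. E2f1 (17 of 25 libraries) and Orc1 (18 of 25) were detected least often. Summed over the 44 genes, null libraries held 2132 to 5750 TPM (median 4622), against 2566 to 5643 TPM in wild-type libraries (median 5242). The genotypes overlapped over nearly the whole range, with 11 of 13 null libraries below the wild-type median and means of 4245 ± 1085 TPM in null and 4850 ± 1014 TPM in wild type (SD over 13 and 12 libraries). The difference of the mean log2 sums, null minus wild type, was -0.21. Null libraries whose table columns are numbered 1 to 7 held 2132 to 4622 TPM and those numbered 8 and above 4814 to 5750 TPM, 2 ranges that did not overlap. In wild type the columns numbered 1 to 7 held 2566 to 5643 TPM and those numbered 8 and above 5155 to 5556 TPM. The labels do not say what the numbers stand for, and none of them sets this cut. Null sums of the 30 G2 and M genes also parted there, at up to 3663 TPM and at 4071 TPM or more. Those of progenitor and neuron markers overlapped. How often other gene lists part at this cut is not given here. The summed level of the 44 moved with that of the 30 G2 and M genes across libraries (Spearman 0.88 and Pearson 0.88 over 13 null libraries, 0.87 and 0.87 over 12 wild-type libraries), both being sums within the same library. The libraries differed in the number of genes detected, from 7863 to 12209, and its correlation with the summed level of the 44 was -0.07 (Spearman) and -0.06 (Pearson) in null and 0.43 and 0.60 in wild type. With the progenitor sum the values were -0.09 and 0.08 in null and 0.34 and 0.60 in wild type. With the neuron sum they were -0.26 and -0.14 in null and -0.08 and -0.15 in wild type, and with the red blood cell sum 0.00 and 0.10 in null and -0.24 and -0.29 in wild type. All of these are descriptions, and no difference between genotypes was tested.

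**Figure D3:**
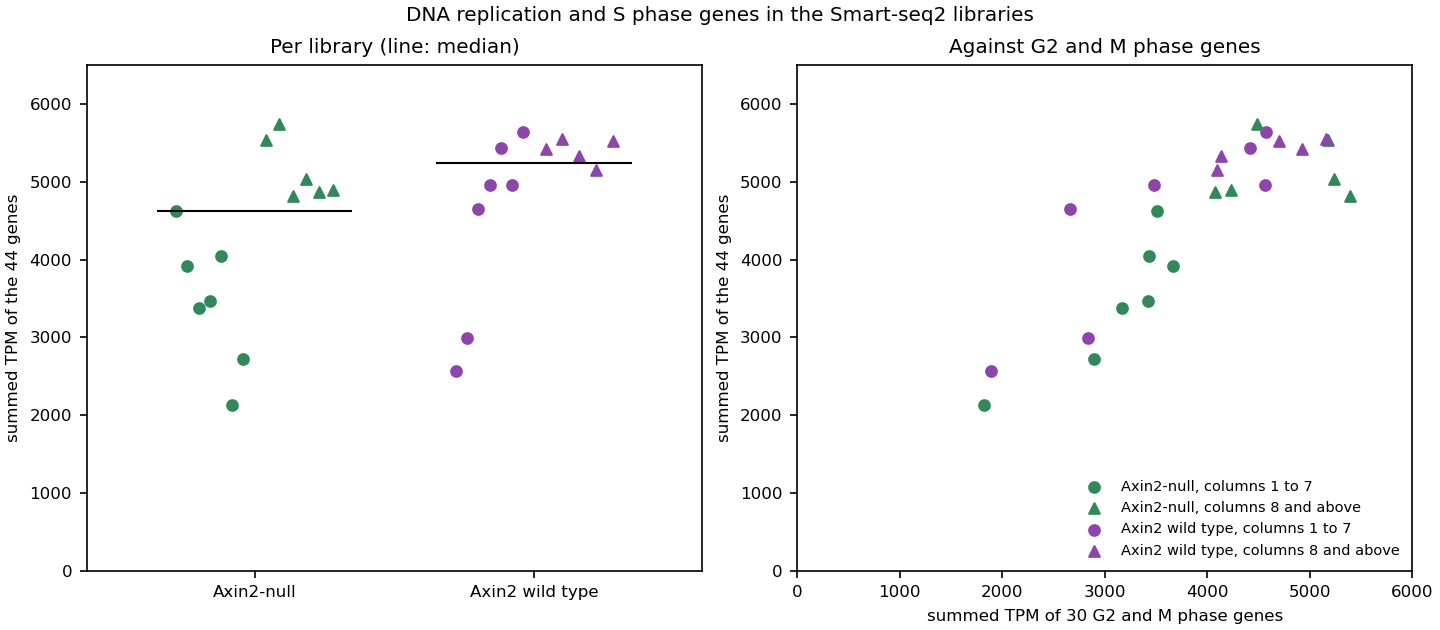
Left, summed TPM of the 44 genes in each Smart-seq2 library, null left of wild type, with a line at the median (4622 and 5242 TPM). Right, the same sums against the summed TPM of 30 G2 and M phase genes, where both genotypes lie along 1 rising band; circles are columns 1 to 7 and triangles columns 8 and above.

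Gene by gene, the difference of mean log2(TPM + 1), null minus wild type, was below 0 for 37 of the 44 (84.1%), set beside 65.9% of the 13680 genes averaging 1 TPM or more. The median difference was -0.27 over the 44 and -0.22 over all genes. A difference of -0.5 or lower was found for 12 of 44, where all genes gave 30.7%, and of 0.5 or higher for 1 (Rfc1), where all genes gave 8.33%. The members' share past -0.5 was thus near that of all genes. Within columns 1 to 7 the median difference over the 44 was -0.42 (all genes -0.11), and within columns 8 and above -0.20 (all genes -0.34). By role the median difference was -1.08 for the G1/S regulators, -0.47 for polymerases, -0.45 for chromatin copying, -0.44 for MCM, -0.35 for strand maturation, -0.28 for licensing and firing, -0.10 for nucleotide supply and 0.05 for clamp and loader.

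**Figure D4:**
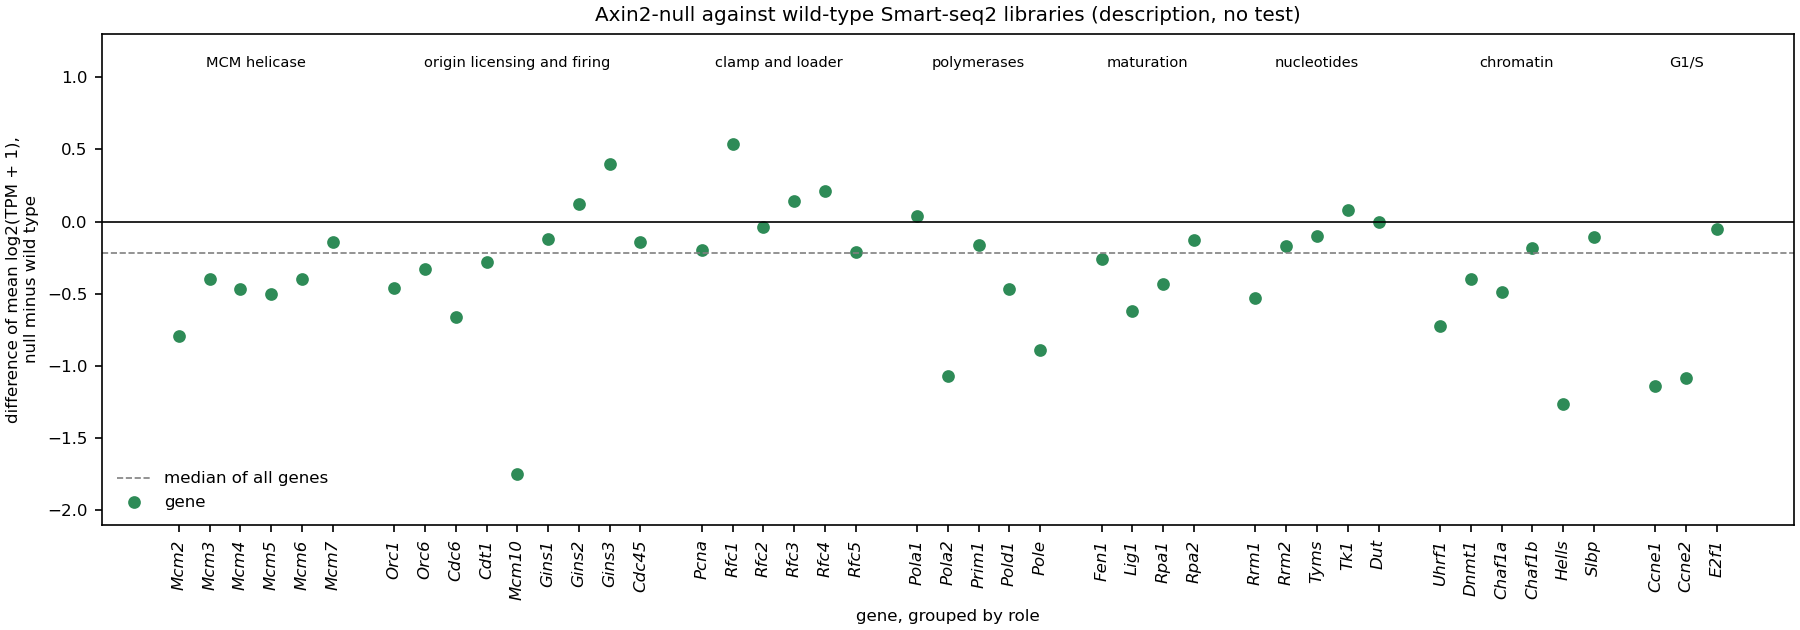
Mean log2(TPM + 1) over 13 null libraries minus that over 12 wild-type libraries, for each gene, with no test. The dashed line marks the median of all genes, -0.22; Mcm10 lies lowest at -1.75 and Rfc1 highest at 0.54.

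Mcm10 was at 0 to 47.4 TPM in null libraries (median 12.9) and at 13 to 90.1 TPM in wild-type libraries (median 28.1), a difference of -1.75. It reached 1 TPM in 10 of 13 null and 12 of 12 wild-type libraries, and the ranges overlapped. Hells, a remodeller that works with DNA methylation, was at 3.96 to 101 TPM in null (median 26.2) and at 35.7 to 108 TPM in wild type (median 61.5), a difference of -1.26. Ccne1 was at 0 to 82.1 TPM in null (median 24.6) and at 14.1 to 66.8 TPM in wild type (median 41.5), a difference of -1.14. For each of these 3 genes the lowest null library lay below the lowest wild-type library. Mcm2, an MCM subunit, was at 1.64 to 175 TPM in null (median 93.9) and at 24.8 to 187 TPM in wild type (median 121), a difference of -0.79. For Mcm2, 11 of 13 null libraries were below the wild-type median.

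Rfc1 was at 20.6 to 81.7 TPM in null (median 48.0) and at 15.2 to 55.2 TPM in wild type (median 28.6), a difference of 0.54, with 2 of 13 null libraries below the wild-type median. Gins3 was at 0 to 65.7 TPM in null (median 14.3) and at 0 to 32.0 TPM in wild type (median 11.9), a difference of 0.40. Rfc4 was at 83.3 to 493 TPM in null (median 208) and at 88.5 to 327 TPM in wild type (median 195), a difference of 0.21. The genotypes overlapped over most of the range for these 3 genes. Pcna was at 85.1 to 478 TPM in null (median 286) and at 137 to 441 TPM in wild type (median 329), and Rrm2 at 70.6 to 648 TPM in null (median 336) and at 130 to 560 TPM in wild type (median 378). Their differences of -0.20 and -0.17 lay near the -0.22 of all genes. Cdc6 (-0.66), Rpa1 (-0.43) and Tk1 (0.08) lie on chromosome 11, the chromosome that the MADM cassettes recombine.

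**Figure D5:**
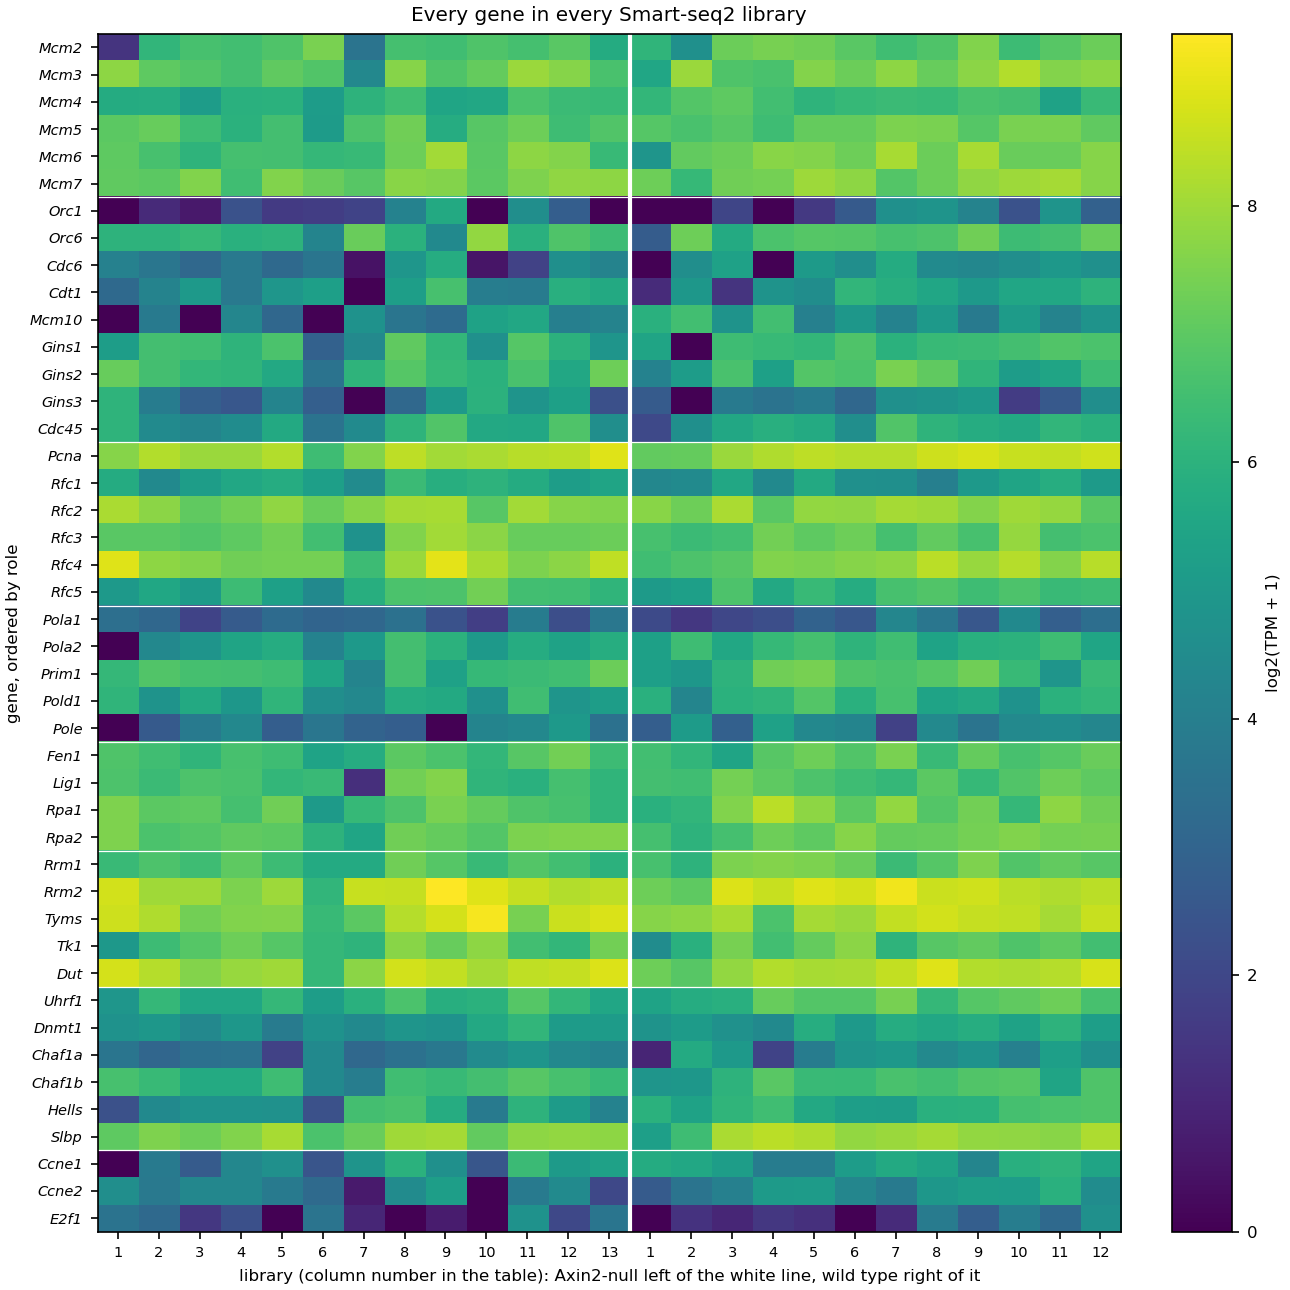
Level of each gene, as log2(TPM + 1), in every Smart-seq2 library, null left and wild type right of the white line, genes ordered by role. Pcna, Rfc4, Rrm2, Tyms and Dut are bright in nearly every library, while Orc1, Pola1 and E2f1 are dark in most.

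Across the 25 libraries, single members followed the sum of the other 43 to different degrees, with a median Spearman correlation of 0.46 and 42 of 44 above 0. Mcm6 (0.80), Cdc45 (0.75) and Pcna (0.71) followed it most closely, and Mcm10 (-0.04) and Pole (0.00) did not. These correlations are descriptions over libraries of both genotypes that differ in the number of genes detected, and whose depth is unknown. The share of all genes with a correlation above 0 is not given here, so the 42 of 44 does not set the members apart. The 85 other replication genes had a median difference of -0.26 between null and wild type, and the 30 G2 and M genes of -0.28. The 44 were at -0.27 and all genes at -0.22. The summed level of the 30 G2 and M genes averaged 3884 ± 1026 TPM in null and 3953 ± 1016 TPM in wild type (SD over 13 and 12 libraries). The progenitor list had a median difference of -0.21, the neuron list of -0.55 and the red blood cell list of 0.37, and their part in the differences of the replication genes was not tested.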

How the data were processed

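RNA was measured by bulk RNA-seq in 6 libraries and by Smart-seq2 in 25. The submitters' processing notes list featureCounts, Trimmomatic, STAR (2.7.0a), mm10 and GRCm38, with no roles. The bulk table deposited by the authors carries TPM in its name, yet its columns sum to 17604411 to 20838226, and 46.6% of its values above 0 are whole within 0.0001; the deposited values were therefore taken to be estimated counts per gene, which do not sum to the same total in each library. The deposited Smart-seq2 table holds TPM, its columns summing to 999999.57 to 1000000.7. Its column letters give a genotype and its numbers could not be tied to samples. Groups came from the labels.

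Bulk values were rounded and tested with edgeR 4.0.16 in R 4.3.3 (TMM scaling, quasi-likelihood F test) over 14701 genes averaging 1 CPM or more, with Benjamini-Hochberg adjustment over all of them and a threshold of 0.05; the SE is the log2 fold change divided by the square root of F. DESeq2 1.42.0, limma 3.58.1 (voom), other scalings and filters, a replicate block and leaving out libraries were the alternatives. Smart-seq2 differences are of mean log2(TPM + 1), and a gene at 1 TPM or more counted as detected. This scale understates the change of genes that are low in all libraries. Where only some libraries of a gene are near 0, it gives a larger change than mean TPM does. In GENCODE M21, 34651 of 34865 bulk and 55227 of 55487 Smart-seq2 identifiers had a symbol. Named in full are, in bulk, the 2 genes of each role with the highest and the 1 with the lowest log2 fold change and the 2 highest called genes of each further list, and, in Smart-seq2, the 3 with the largest difference in each direction with Mcm2, Pcna, Rrm2 and Ccne1. The genes and lists were chosen with earlier results of these data known. No 2 replicates agreed within sampling noise (chi-square per gene 8.69 or more), and each library was counted.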

Additional observations from a re-analysis of the deposited data

How the results depend on the processing

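The 44 genes kept a median log2 fold change between 1.02 and 1.20 under all 14 alternatives, with 0 higher in ventral in each. The number higher in dorsal was 26 with DESeq2 size factors, 25 with upper quartile scaling or at least 0.5 CPM in each region, 27 with no filter, 28 with limma-voom and 29 with DESeq2, and 16 to 30 with 1 library left out. Over all genes, leaving out 1 library gave 498 to 1695 higher in dorsal and 843 to 1928 higher in ventral. The 0.5 CPM minimum in each region gave 821 higher in ventral, and libraries 1 and 2 alone, an alternative chosen after seeing the data, gave 3843 higher in dorsal and 4117 higher in ventral. The number of genes tested and of libraries differs between these settings, and the cause was not tested further. With no filter the median log2 fold change of all genes was 0.11. Of the 26 calls, 14 held under every alternative, among them Mcm5, Mcm10, Cdt1, Pcna, Pole, Rrm2, Tk1, Uhrf1, Chaf1b and E2f1.

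Of the 44 genes, 3 reversed, none of them past the threshold: Rfc3 (-0.05 to 0.08 with 1 library left out, -0.01 with 0.5 CPM in each region, -0.04 in libraries 1 and 2 alone), Slbp (-0.04 to 0.10 with 1 library left out) and Orc6 (-0.23 to 0.11 with 1 library left out, 0.01 in libraries 1 and 2 alone). Whether the replicate numbers pair the samples could not be settled. Deviations of same-numbered libraries correlated at 0.0992, 0.148 and 0.165, and those of differently numbered libraries at -0.192 to 0.187. Deviations from a mean of 3 libraries per region cannot decide it. With the replicate number as a block, 27 of the 44 were higher in dorsal, Mcm4 (adjusted p = 0.0388) and Rrm1 (0.0283) being gained and Tyms (0.0529) lost, and not every library correlated best with its own number.

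In the Smart-seq2 libraries the median difference of the 44 genes stayed below 0, between -0.20 and -0.42. The median of all genes was also below 0 in every setting, between -0.10 and -0.34. For the 44 genes it was -0.29 and -0.23 with pseudocounts of 0.1 and 10 TPM (all genes -0.32 and -0.10). From medians over libraries it was -0.36 (all genes -0.14). By alternatives chosen after seeing the data, it was -0.35 in libraries with at least 9000 genes (all genes -0.13). Further alternatives of this kind gave -0.37 in libraries under 10000 TPM of red blood cell genes (all genes -0.29) and -0.26 without these genes (all genes -0.22). TPM keeps no depth, so a library listed at 0 does not show that a gene was silent.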
